A study of Mus musculus with 24 samples.

Results

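The genes described here are 10 immediate early genes, Fos, Fosb, Jun, Junb, Jund, Egr1, Ier2, Ier3, Atf3 and Zfp36, chosen by name and looked up by symbol among the 55414 genes of the deposited RNA tables. All 10 were found. They were followed across 8 spleen (splenocyte) RNA-seq libraries, 4 titled CT-26 (in the submitters' spelling, "CT-26 tumur") and 4 titled control, all from BALB/c mice, out of 24 libraries that also hold T and B cell receptor sequencing not used here. CT-26 is a colon carcinoma cell line of BALB/c origin, and the treatment protocol describes its injection into the right side of mice aged 8 weeks. The treatment field runs against the titles: libraries titled CT-26 are given as healthy controls, and libraries titled control as injected with CT-26 cells. The sets are therefore called by their titles, every difference is titled CT-26 over titled control, and none is read as tumour-bearing against healthy. The labels do not say whether the libraries came from separate animals, so the p-values measure the spread between these libraries, which may be partly technical.

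Immediate early genes are switched on within minutes of a stimulus by transcription factors already present in the cell, without new protein synthesis, and their transcripts are short-lived. Fos and Jun proteins carry a basic leucine zipper (bZIP) and pair to form the AP-1 transcription factor, with Fos proteins needing a Jun partner to bind DNA stably. In lymphocytes they respond to antigen receptors, in myeloid cells to microbial products and cytokines, and in any tissue also to handling and dissociation. The 10 genes are not all transcription factors: Zfp36 (tristetraprolin) binds AU-rich elements and promotes mRNA decay, and Ier3 encodes a membrane-associated protein of the stress and survival response.

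The response of these genes is classically traced to short elements close to the transcription start, and the sequences below show what the proximal promoters of members with and without a difference contain. Of the 10 members, 8 matched a RefSeq promoter window on GRCm38.p6, all but Egr1 and Ier2. The 250 bases before the start were searched on both strands for the cyclic AMP response element (CRE) core TGACGT, the CRE-like site TGACNTCA, which can overlap that core, the AP-1 site TGANTCA, the TATA box TATAAA, the EGR site GCGGGGGCG, the GC box GGGCGG, which can overlap the EGR site, and the CArG box bound by serum response factor. The windows shown are those of Fos (chr12:85473640-85473889, plus strand), Junb (chr8:84978749-84978998, minus strand) and Ier3 (chr17:35821463-35821712, plus strand), which were higher in the titled CT-26 libraries, and of Zfp36 (chr7:28379229-28379478, minus strand), which did not pass the test. Capitals mark matches to any of these motifs except the GC box. The window of Jund is not shown because its RefSeq start lies 1210 bases from the nearest GENCODE M21 transcript start.
Fos: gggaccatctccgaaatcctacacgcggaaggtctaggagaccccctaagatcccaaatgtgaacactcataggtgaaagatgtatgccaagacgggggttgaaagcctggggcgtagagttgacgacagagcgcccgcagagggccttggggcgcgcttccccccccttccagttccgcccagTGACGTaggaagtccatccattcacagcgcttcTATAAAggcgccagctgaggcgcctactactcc
Junb: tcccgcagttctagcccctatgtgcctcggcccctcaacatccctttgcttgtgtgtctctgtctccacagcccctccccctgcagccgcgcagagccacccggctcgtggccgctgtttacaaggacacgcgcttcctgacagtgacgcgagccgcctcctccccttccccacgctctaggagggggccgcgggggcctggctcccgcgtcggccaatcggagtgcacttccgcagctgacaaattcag
Ier3: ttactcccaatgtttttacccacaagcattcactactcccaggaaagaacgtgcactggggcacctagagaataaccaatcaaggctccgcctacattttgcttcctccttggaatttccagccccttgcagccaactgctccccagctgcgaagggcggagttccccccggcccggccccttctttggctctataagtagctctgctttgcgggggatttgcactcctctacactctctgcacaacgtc
Zfp36: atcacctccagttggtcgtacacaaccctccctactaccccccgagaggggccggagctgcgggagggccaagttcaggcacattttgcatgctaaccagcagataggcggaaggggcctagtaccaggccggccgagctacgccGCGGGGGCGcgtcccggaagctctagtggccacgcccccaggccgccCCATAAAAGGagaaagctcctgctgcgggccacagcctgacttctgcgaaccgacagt
The Fos window held a CRE core from 66 to 61 bases and a TATA box from 33 to 28 bases before the start. The classical Fos serum response element lies farther upstream than this window reaches. The Zfp36 window held an EGR site and, from 58 to 49 bases before the start, the CArG box CCATAAAAGG. The windows of Junb and Ier3 held none of the capitalised motifs. In all 32851 windows of the same length, the CRE core was in 6.47%, the TATA box in 12.4%, the EGR site in 2.57% and the CArG box in 1.47%. The Jun window, not shown, held the CRE-like site TGACATCA from 45 to 38 bases before the start, a motif found in 7.49% of windows, and the AP-1 site, found in 6.75% of windows, was in none of the 8 member windows. A GC box was in 6 of the 8 member windows and in 32.7% of all windows. Of the windows not shown, that of Fosb also held an EGR site and that of Atf3 a CRE core. These matches are letters in a window and not measured binding.

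The RNA libraries were shallow, which bears on every value below. They held between 735298 and 1152550 counts in the titled CT-26 set and between 907109 and 1970950 in the titled control set, and mitochondrially encoded genes took between 32.0% and 41.1% of them in the titled CT-26 set and between 46.2% and 66.1% in the titled control set. Levels are CPM, counts scaled to a common library total, with totals adjusted by TMM, a method that balances libraries on most of their genes. A gene with 0 counts in a library could still have been present at up to 3 counts, which is between 1.52 and 4.08 CPM of the unscaled totals. B cell markers were detected in all libraries, which does not tell spleen from other tissues that hold B cells, so spleen is taken from the labels. The epithelial markers Epcam, Krt8, Krt18, Krt19 and Cdh1, which would mark carcinoma cells, summed to between 0 and 7.96 CPM in the titled CT-26 set. In the titled control set they summed to between 0.601 and 3.22 CPM.

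Of the 10 members, 6 had enough counts to be tested, and 4 of these, Fos, Junb, Jund and Ier3, were higher in the titled CT-26 libraries at an adjusted p under 0.05 (edgeR's quasi-likelihood test, Benjamini-Hochberg over 6408 genes). None was lower. Egr1 and Zfp36 did not pass, and Fosb, Jun, Ier2 and Atf3 fell under the filter on low counts. The contrast moved much of the transcriptome: 21.2% of all genes tested were called higher, 21.6% lower and 42.8% in either direction. Ier3 passed the filter through the titled CT-26 set alone, with 4 libraries past its limit there and 0 in the titled control set. Fos had 4 such libraries in the titled CT-26 set and 2 in the titled control set, so the count of members called is no support by itself. With no filter, the median log2 fold change was 0.51 over all 10 members and -0.24 over 18766 genes with a count. In that same fit it was 0.05 over the 6408 genes that pass the filter, so -0.24 is drawn down by genes of low counts. For 3 of the 6 tested members the sets did not overlap in CPM, each higher in the titled CT-26 set. Among all genes tested, 19.7% were higher without overlap, 18.9% lower and 38.5% in either direction. Fos and Ier3 are among the 3, so the limit set by the filter holds for this count too. Junb is the weakest of the 4, and its call rests on single libraries, as described with its values.

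**Figure D1:**
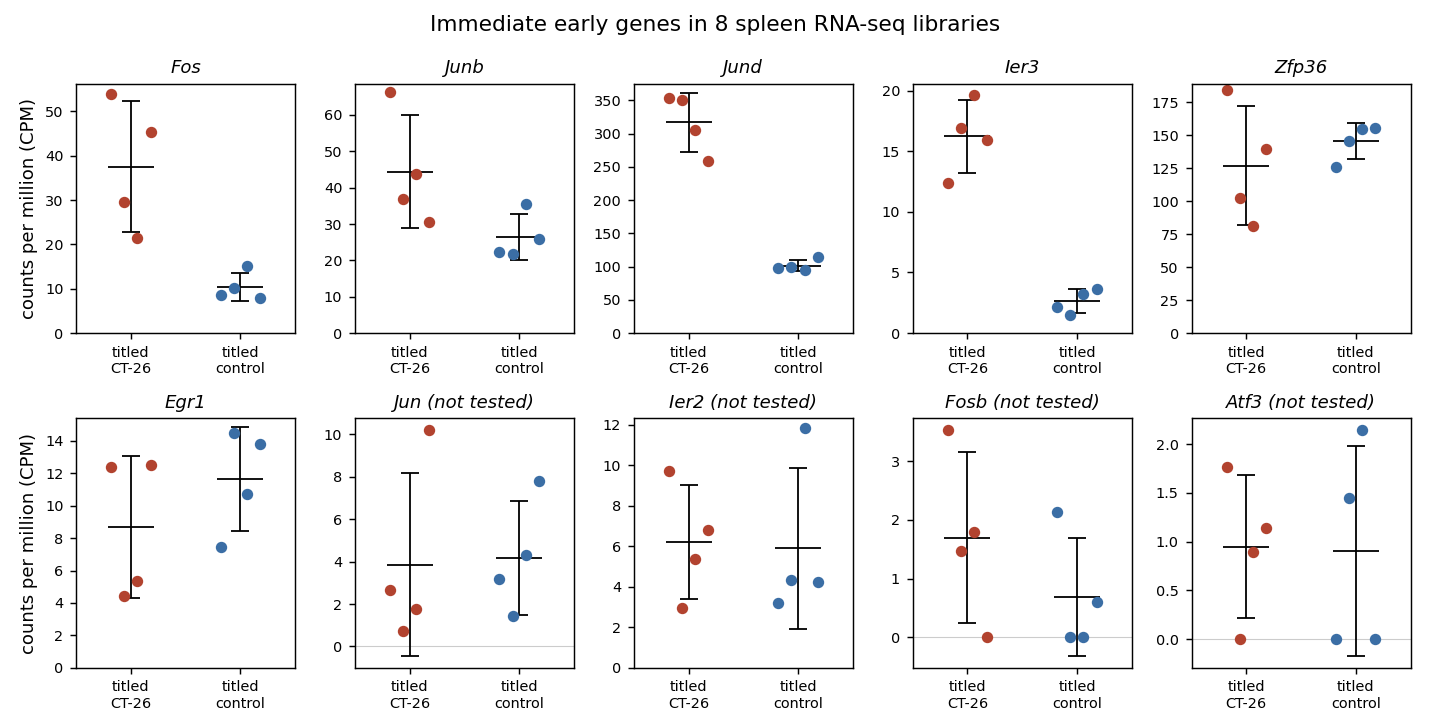
CPM (y axis, linear, separate scale per gene) of each immediate early gene in the 4 titled CT-26 libraries (red, left) and the 4 titled control libraries (blue, right); points are libraries, the long bar is the mean and the whiskers the SD. The sets do not overlap for Fos, Jund and Ier3, overlap for the other 7 genes, and the 4 genes marked as not tested have few counts.

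Fos is the founding member of its family and a short-lived AP-1 subunit. It had 61, 40, 24 and 40 counts in titled CT-26 libraries 1 to 4, or 53.9, 29.5, 21.5 and 45.4 CPM, against 8, 14, 14 and 13 counts, or 8.54, 10.1, 15.04 and 7.82 CPM, in titled control libraries 1 to 4. Every titled CT-26 library lay above every titled control library, although the titled CT-26 values spread over more than the whole titled control range. The means were 37.6 ± 14.8 CPM in the titled CT-26 set and 10.4 ± 3.25 CPM in the titled control set (SD, n = 4 each). The log2 fold change was 1.87 ± 0.34 (SE; edgeR adjusted p 4.49e-05). Fos (ENSMUSG00000021250) lies on the plus strand of chromosome 12 from 85520664 to 85524047 (GRCm39), and no other gene of the table overlaps it. Its relative Fosb, which in neurons yields a long-lived truncated form, was near the limit of detection, with 4, 2, 2 and 0 counts in the titled CT-26 libraries and 2, 0, 0 and 1 in the titled control libraries. These 11 counts in all do not allow a statement on Fosb at this depth. Fosb (ENSMUSG00000003545) lies on chromosome 7 from 19036621 to 19043976, minus strand.

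The Jun family, which can form AP-1 by itself or with Fos proteins, was led by Jund in both sets. Jund is the family member that is broadly expressed in resting cells and can restrain growth. It had 400, 476, 341 and 228 counts in the titled CT-26 libraries, or 354, 351, 305 and 259 CPM, against 91, 137, 88 and 189 counts, or 97.2, 99.3, 94.5 and 114 CPM, in the titled control libraries. The lowest titled CT-26 library was above the highest titled control library by more than the range of either set. Jund averaged 317 ± 44.7 CPM in the titled CT-26 set and 101 ± 8.56 CPM in the titled control set (SD, n = 4 each). Its log2 fold change was 1.65 ± 0.20 (SE; edgeR adjusted p 1.65e-07). The single-exon gene (ENSMUSG00000071076, chromosome 8, 71151599 to 71153265, plus strand) shares 877 of its 1667 exon bases with Gm11175 on the minus strand, which had 0 counts in all libraries. The header of the deposited tables shows neither a strand setting nor an option to count fragments in shared bases, so the level of Jund given here may be too low in both sets.

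Junb, a subunit that often dampens Jun activity and is prominent in T helper and myeloid cells, differed less. It had 75, 50, 49 and 27 counts, or 66.3, 36.8, 43.8 and 30.7 CPM, in the titled CT-26 libraries, against 21, 30, 33 and 43 counts, or 22.4, 21.7, 35.4 and 25.9 CPM, in the titled control libraries. Titled control 3 lay above titled CT-26 4, so the sets overlapped. The means of 44.4 ± 15.6 CPM in the titled CT-26 set and 26.4 ± 6.31 CPM in the titled control set gave a log2 fold change of 0.76 ± 0.28 (SE; edgeR adjusted p 0.0269; SD over n = 4 each). The call ended without titled CT-26 1 (log2 fold change 0.53, adjusted p 0.131), without titled control 1 (0.72, adjusted p 0.0624), without titled control 2 (0.67, adjusted p 0.0852) and with the sequencing lane in the model (0.74, adjusted p 0.1004). Junb (ENSMUSG00000052837, chromosome 8, 85701113 to 85705347, minus strand) also shares 173 of its 2301 exon bases with the peroxiredoxin gene Prdx2 on the plus strand. Prdx2, abundant in red cells, had a log2 fold change of 1.72 ± 0.24 (SE), at 584 ± 220 CPM in the titled CT-26 set and 178 ± 28.9 CPM in the titled control set. As for Jund, the header shows no option to count fragments in shared bases, so the level of Junb may be too low as well. The part of Prdx2 in the Junb difference was not tested.

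Jun, the prototype of the family and the partner most often named with Fos, was scarce in every spleen library. It had 3, 1, 2 and 9 counts in the titled CT-26 libraries and 3, 2, 4 and 13 in the titled control libraries. The replicate numbered 4 held most of the reads in both sets, and the 2 sets overlapped over nearly their whole range. With the filter on low counts removed, the log2 fold change was -0.22 ± 0.67 (SE), with an approximate 95% interval from -1.53 to 1.08. Jun (ENSMUSG00000052684) lies on chromosome 4 from 94937271 to 94940459 on the minus strand and overlaps the antisense gene Junos, which had 1 count in all.

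Because all 5 Fos and Jun genes were read in the same library, their mixture can be compared without scaling libraries to each other. Their summed level was 345 to 480 CPM in the titled CT-26 libraries and 133 to 156 CPM in the titled control libraries. Jund took 78.5% ± 4.89 of the Fos and Jun family counts in the titled CT-26 set and 71.0% ± 5.20 in the titled control set, and the ranges overlapped, at 73.7% to 83.7% in the titled CT-26 set and 63.3% to 74.9% in the titled control set. Junb took 10.8% ± 2.43 in the titled CT-26 set and 18.4% ± 3.58 in the titled control set, with ranges of 8.79% to 13.8% in the titled CT-26 set and 16.4% to 23.7% in the titled control set that did not overlap. The share of Fos was 9.29% ± 3.49 in the titled CT-26 set and 7.29% ± 2.15 in the titled control set, and that of Jun was 1.04% ± 1.29 in the titled CT-26 set and 2.85% ± 1.63 in the titled control set (SD, n = 4 per set). These shares are of counts, which favour longer transcripts, and are given as a description with no test.

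**Figure D2:**
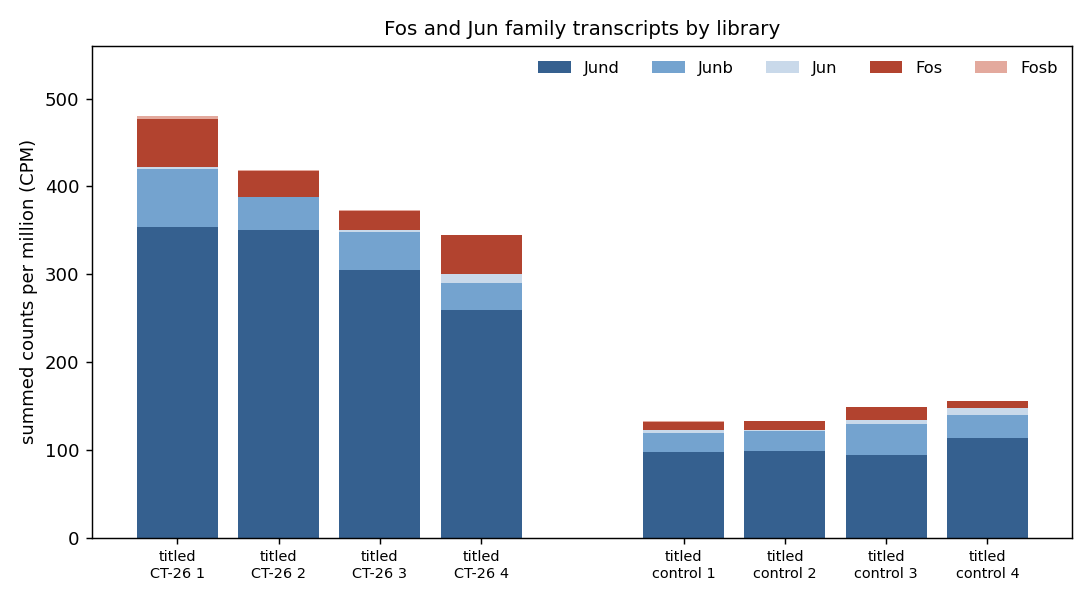
Stacked CPM (y axis, linear from 0) of the Fos and Jun family genes in each library, with the titled CT-26 libraries on the left and the titled control libraries on the right. Jund makes up most of every bar, and the summed level lies between 345 and 480 CPM in the titled CT-26 libraries and between 133 and 156 CPM in the titled control libraries.

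Atf3, a bZIP repressor induced by stress and by Toll-like receptor signals in macrophages, had 2, 0, 1 and 1 counts in the titled CT-26 libraries and 0, 2, 2 and 0 in the titled control libraries, 4 in each set. No difference in Atf3 (ENSMUSG00000026628, chromosome 1, 190902493 to 190950236, minus strand) was detectable at this depth. The zinc finger factor Egr1, which lymphocytes induce through the ERK pathway, had 14, 6, 6 and 11 counts, or 12.4, 4.42, 5.36 and 12.5 CPM, in the titled CT-26 libraries. In the titled control libraries it had 7, 20, 10 and 23 counts, or 7.48, 14.5, 10.7 and 13.8 CPM. The sets overlapped, and the log2 fold change was -0.50 ± 0.41 (SE), with an edgeR adjusted p of 0.342 and an approximate 95% interval from -1.30 to 0.31. An increase of Egr1 of the size seen for Fos lies outside that interval. Egr1 (ENSMUSG00000038418) is at 34992876 to 34998037 on chromosome 18.

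Ier3 showed the largest difference of the members. It is an early target of NF-kappaB and of ERK signalling that modulates cell survival. It had 14, 23, 22 and 14 counts, or 12.4, 16.9, 19.7 and 15.9 CPM, in the titled CT-26 libraries, against 2, 2, 3 and 6 counts, or 2.14, 1.45, 3.22 and 3.61 CPM, in the titled control libraries. The sets were far apart, although the titled control values rest on 13 counts in all. The means were 16.2 ± 3.02 CPM in the titled CT-26 set and 2.60 ± 0.991 CPM in the titled control set (SD, n = 4 each), and the log2 fold change was 2.58 ± 0.44 (SE; edgeR adjusted p 2.60e-05). The gene (ENSMUSG00000003541, chromosome 17, 36132576 to 36133815, plus strand) has no overlapping neighbour in the table. Ier2, a nuclear regulator named like Ier3, had 11, 4, 6 and 6 counts in the titled CT-26 libraries and 3, 6, 11 and 7 in the titled control libraries, 27 in each set. With no filter its log2 fold change was 0.18 ± 0.55 (SE), with an approximate 95% interval from -0.91 to 1.27. Ier2 (ENSMUSG00000053560) lies on chromosome 8 from 85387960 to 85389483, minus strand.

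Zfp36 was, after Jund, the most abundant member per length of transcript. It had 208, 139, 91 and 123 counts, or 184, 102, 81.4 and 140 CPM, in the titled CT-26 libraries, against 118, 201, 144 and 258 counts, or 126, 146, 155 and 155 CPM, in the titled control libraries. The titled CT-26 libraries lay on both sides of the narrower titled control range. The log2 fold change was -0.20 ± 0.23 (SE), with an edgeR adjusted p of 0.501 and an approximate 95% interval from -0.65 to 0.25, which leaves out changes of the size of those in Fos, Jund or Ier3. Its sign turned without TMM, at 0.16, and with the sequencing lane in the model, at 0.02. Zfp36 (ENSMUSG00000044786) lies on chromosome 7 from 28076209 to 28079678 on the minus strand.

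On the scale of CPM per kilobase of exon, the order of levels in the titled CT-26 set was Jund at 190 ± 26.8, Zfp36 at 36.6 ± 13.0, Junb at 19.3 ± 6.76, Fos at 16.0 ± 6.28 and Ier3 at 14.3 ± 2.67 (SD, n = 4), followed by Ier2, Egr1, Jun, Atf3 and Fosb, all at 4.08 or less. Only the steps from Jund to Zfp36 and from Ier3 to Ier2 were free of overlap between libraries. In the titled control set the order was Jund at 60.7 ± 5.13, Zfp36 at 41.9 ± 3.93, Junb at 11.5 ± 2.74 and Fos at 4.42 ± 1.38, each without overlap with the one before. Ier2, Egr1, Ier3, Jun, Atf3 and Fosb followed, between 3.87 and 0.110, where all neighbours overlapped, Fos and Ier2 included. Ier3 thus stood at rank 5 in the titled CT-26 set and at rank 7 in the titled control set.

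Within the sets the members did not all rise and fall together in these libraries. Titled CT-26 1 had the highest Fos, Junb, Jund and Zfp36 of its set but the lowest Ier3. With each set's mean removed, Pearson's r of log2 CPM over the 8 libraries was 0.86 between Fos and Zfp36, 0.83 between Egr1 and Zfp36 and 0.64 between Fos and Egr1, while Ier3 had -0.42 with Fos and -0.44 with Zfp36, the range over the 15 pairs being -0.44 to 0.86. The points share library depth and composition, and these values are a description over few libraries. Ier3 had between 2 and 23 counts per library, and whether its pattern differs beyond counting error was not tested. By the same measure, genes most like the mean of the 6 tested members, among 1320 other genes of mean log2 CPM of at least 6, were the RNA helicase Ddx24 (r = 0.96), Hnrnpa0, Reep3, Pias1, Dgka, Zfp36l1 and Snx5 (r = 0.90). Of these 7, Ddx24 and Hnrnpa0 were higher and Dgka and Zfp36l1 lower in the titled CT-26 libraries, and Reep3, Pias1 and Snx5 did not pass.

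Ratios of 2 genes within a library do not depend on how libraries are scaled, and 6 pairs were compared by exact two-sided permutation over 70 assignments of libraries, for which 0.0286 is the smallest p. Ier2 over Ier3 had a mean log2 ratio of -1.42 ± 0.879 in the titled CT-26 libraries and 0.95 ± 0.716 in the titled control libraries (SD, n = 4 each), a difference of -2.36 with no overlap (exact permutation p = 0.0286, adjusted over 6 pairs 0.0857). Fos over Jun averaged 3.57 ± 1.15 in the titled CT-26 libraries and 1.38 ± 1.06 in the titled control libraries, a difference of 2.19 (exact permutation p = 0.0571, adjusted 0.114). Jund over Jun differed by 2.06 and Junb over Jun by 1.13 (exact permutation p = 0.0857 and 0.257), and Fosb over Fos by -0.69 (exact permutation p = 0.543). Jun had between 1 and 13 counts per library and Fosb between 0 and 4. The ratios with Jun or Fosb thus rest on few reads, and the 0.5 added counts weigh on them. No pair passed after adjustment. With 0.0286 as the smallest p, a pair cannot pass over 6 pairs unless most of the others reach that p too. The test therefore could not decide whether the paired genes differ in response, and such a difference was not established. The Ier2 to Ier3 ratio was lower in 4 of 4 titled CT-26 libraries than in any titled control library.

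**Figure D3:**
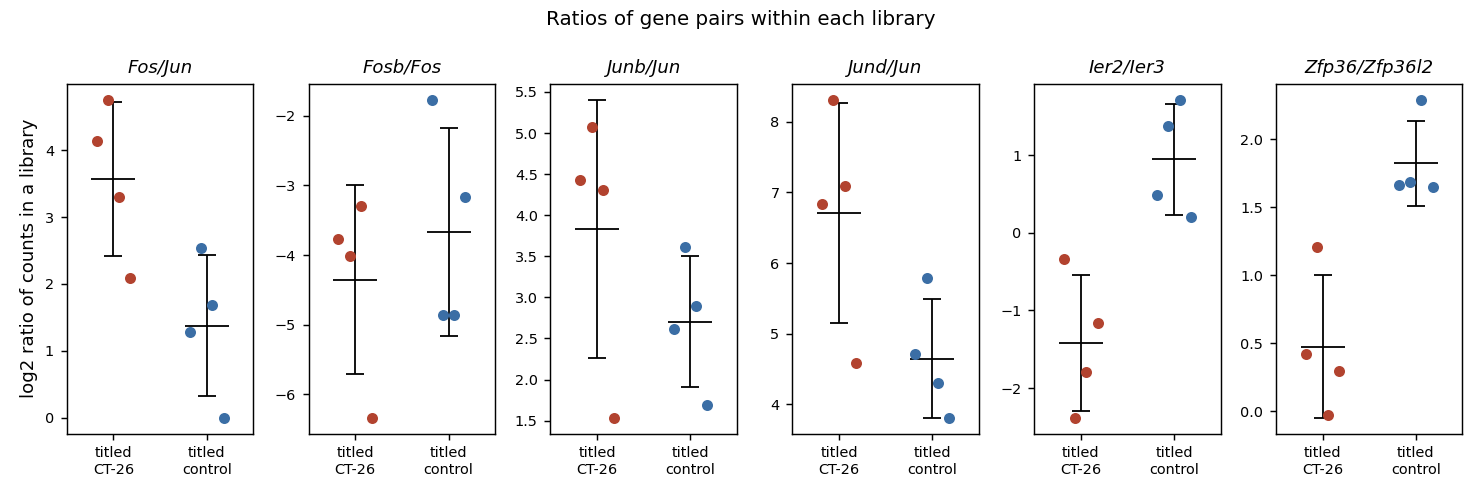
Log2 ratio of the counts of 2 genes in the same library (y axis, separate linear scale per pair, 0.5 counts added to each) in the titled CT-26 libraries (red, left) and titled control libraries (blue, right), with mean (long bar) and SD (whiskers). The sets do not overlap for Ier2/Ier3 and Zfp36/Zfp36l2 and overlap for the 4 pairs of Fos and Jun family genes.

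The sixth pair compared Zfp36 with its paralogue Zfp36l2, which binds the same AU-rich elements. Zfp36 over Zfp36l2 had a mean log2 ratio of 0.47 ± 0.524 in the titled CT-26 libraries and 1.82 ± 0.314 in the titled control libraries, a difference of -1.35 with no overlap (exact permutation p = 0.0286, adjusted 0.0857; SD, n = 4 each). Zfp36l2 had 137, 44.2, 83.1 and 114 CPM in the titled CT-26 libraries and 39.5, 44.9, 31.2 and 49.3 CPM in the titled control libraries, overlapping through titled CT-26 2 (log2 fold change 1.17 ± 0.28 SE, edgeR adjusted p 0.00111). The third paralogue Zfp36l1 moved the other way, at 164 ± 43.6 CPM in the titled CT-26 set and 325 ± 58.5 CPM in the titled control set (log2 fold change -0.99 ± 0.22 SE, edgeR adjusted p 5.31e-04). Of 12 genes of this family and of mRNA decay, 3 were higher and 5 lower, where 21.2% of all genes tested were higher and 21.6% lower. Among the 12, the AU-rich element binding proteins Hnrnpd and Elavl1 had log2 fold changes of 1.24 and -1.17. Few known Zfp36 targets could be tested, 3 of 12: Ier3, itself a member, was higher, Tnf was lower at -1.74 ± 0.51 (SE; edgeR adjusted p 0.00801), and Myc had -0.07 ± 0.25 (SE; adjusted p 0.855). Tnf had only 7, 5, 13 and 2 counts in the titled CT-26 libraries and 21, 43, 23 and 8 in the titled control libraries. Its sets overlapped in CPM through titled control 4.

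Other bZIP factors, the possible partners and rivals of Fos and Jun, went both ways. Of 23 genes, 11 were tested, and 3 were higher and 4 lower, with a median log2 fold change of 0.34. Over all genes tested, 21.2% were higher and 21.6% lower. The Fos relative Fosl2 had 11.5, 15.5, 14.3 and 18.2 CPM in the titled CT-26 libraries, against 1.07, 5.07, 5.37 and 3.61 CPM in the titled control libraries, without overlap, and a log2 fold change of 1.91 ± 0.43 (SE; edgeR adjusted p 6.89e-04). Its titled control values rest on only 1, 7, 5 and 6 counts, all under the limit of the filter on low counts. Fosl2 thus passed the filter through the titled CT-26 set alone, so its call is no support by itself. Atf1, a CRE-binding factor, averaged 130 ± 21.7 CPM in the titled CT-26 set and 39.3 ± 10.6 CPM in the titled control set (SD, n = 4 each). Maf, which shapes macrophage and T cell programmes, was lower, with a log2 fold change of -2.13 ± 0.32 (SE). Fosl1 had 0 counts in all libraries.

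Other immediate early genes were likewise divided: of 34, 19 were tested, 5 were higher and 6 lower, with a median log2 fold change of -0.14. The shares over all genes tested were 21.2% higher and 21.6% lower. Ppp1r15a (GADD34), which directs the phosphatase that reverses eIF2alpha phosphorylation, had 232, 239, 199 and 191 CPM in the titled CT-26 libraries, against 14.95, 17.4, 25.8 and 25.9 CPM in the titled control libraries. Its log2 fold change was 3.34 ± 0.24 (SE; edgeR adjusted p 1.95e-11). Gadd45a, a p53 and stress target, had 30.9, 49.4, 54.5 and 36.3 CPM in the titled CT-26 libraries and 5.34, 5.07, 1.07 and 2.41 CPM in the titled control libraries (log2 fold change 3.59 ± 0.38 SE). Those titled control values rest on only 5, 7, 1 and 4 counts, and Gadd45a passed the filter through the titled CT-26 set alone. Klf10 had a log2 fold change of 1.16, and Klf2, the quiescence factor of naive lymphocytes, one of -1.31.

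Signalling genes around the members went both ways, and their counts stand beside 42.8% of all genes tested called in either direction. Among 9 phosphatases that switch off MAP kinases, 5 were tested, 2 were higher and 1 lower, with a median log2 fold change of -0.50. Dusp8 had 48.5 ± 15.3 CPM in the titled CT-26 set and 1.91 ± 0.990 CPM in the titled control set (log2 fold change 4.64 ± 0.41 SE). Its titled control values rest on 3, 3, 1 and 2 counts, at or under the floor of 3 counts, so the size of the difference is uncertain. Dusp8 also passed the filter through the titled CT-26 set alone. Dusp1, itself an immediate early gene, had a log2 fold change of 2.68 ± 0.32 (SE). Dusp6, a feedback inhibitor of ERK, had -0.95 ± 0.27 (SE), a call that ended without TMM (-0.59, adjusted p 0.155). Dusp2 had -0.52 (adjusted p 0.183) and passed only without titled CT-26 1 (-0.86, adjusted p 0.0257). Of 22 upstream kinases and serum response factors, 17 were tested, 2 were higher and 4 lower, with a median of -0.48. The ERK kinase Map2k1 and the serum response cofactor Elk3 were lower, with log2 fold changes of -1.37 and -1.83, while Elk4 and the ERK1 gene Mapk3 had 0.95 and 0.69. The Mapk3 call ended with the sequencing lane in the model (adjusted p 0.0625) and without titled CT-26 2, titled control 2 or titled control 3 (adjusted p 0.0729, 0.0590 and 0.0653). Serum response factor itself, Srf, had 18 counts in the titled CT-26 set and 48 in the titled control set and was not tested.

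**Figure D4:**
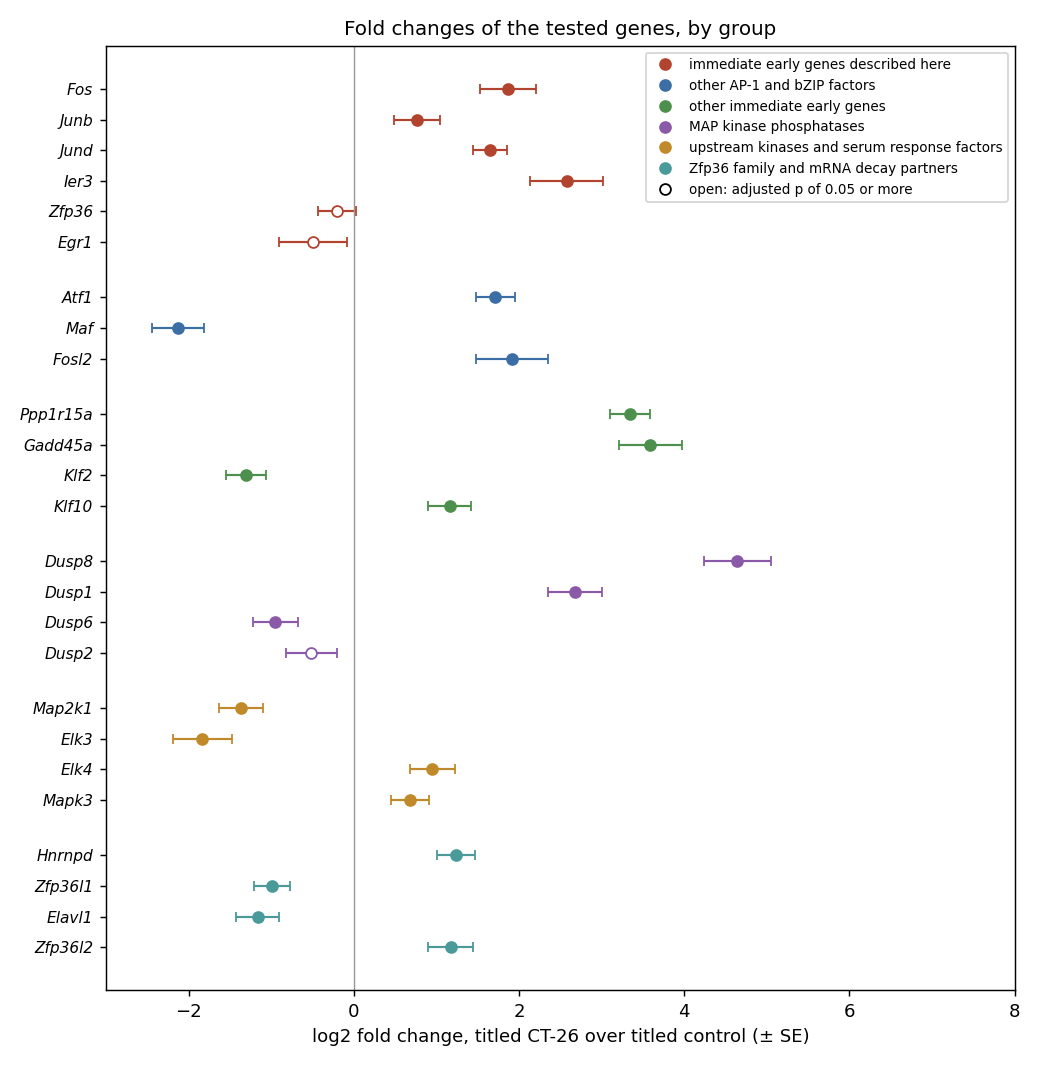
Log2 fold change (x axis, titled CT-26 over titled control) with its standard error for the 6 tested immediate early genes and for up to 4 genes of smallest p in each of 5 related groups, coloured by group; filled points had an adjusted p under 0.05. Fos, Junb, Jund and Ier3 lie right of 0 with Dusp8, Dusp1, Ppp1r15a and Gadd45a, while each of the 5 related groups has points on both sides of 0.

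Lists of 3 stress programmes were read beside the members. Of 12 integrated stress response genes, 5 were tested and 3 were higher: Ppp1r15a, the asparagine synthetase Asns at 3.10 ± 0.37 (SE) and Herpud1 at 1.14, while Ddit3 had 0.56 (adjusted p 0.235). Of 11 heat shock genes, which respond to misfolded protein, 8 were tested, 0 were higher and 2 lower, Dnaja1 at -1.69 and Hsph1 at -3.96. Titled control 4 held 300 Hsph1 and 444 Dnaja1 counts, against 55, 27 and 25 and 141, 106 and 85 in titled control 1 to 3. Without titled control 4 the log2 fold changes were -2.87 for Hsph1 and -1.20 for Dnaja1 (edgeR adjusted p 4.96e-05 and 2.73e-04). The Hsph1 call ended without titled CT-26 1, 2 or 3 (adjusted p 0.0628, 0.0506 and 0.0619) and with no filter on low counts (0.0613). Hspa8 and Hspe1 had -0.72 and -0.49 and did not pass, but Hspa8 passed without titled CT-26 4 (adjusted p 0.0180) or titled control 2 (0.0333), and Hspe1 without titled CT-26 2 (0.0294). Of 9 glucocorticoid-responsive genes, 8 were tested, 6 were higher and 1 lower, with Dusp1 as above, Klf9 at 2.61 and Fkbp5 at 1.87. Per1 had 105, 96, 73 and 57 counts in the titled CT-26 libraries and 0, 0, 4 and 0 in the titled control libraries. It passed the filter through the titled CT-26 set alone. Across all these lists, 43 of 78 genes tested were called, 22 higher and 21 lower. Of all 6408 genes tested, 42.8% were called, 21.2% higher and 21.6% lower. Without TMM 26 list genes were higher and 10 lower of 36 called. The list counts include genes that passed the filter through the titled CT-26 set alone, such as Fosl2, Gadd45a, Dusp8 and Per1.

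The spleens differed in cell markers as well, and in bulk RNA fewer cells of a type and less RNA per cell cannot be told apart. Of 8 B cell markers all 8 were lower, summing to 262 to 460 CPM in the titled CT-26 libraries and 1798 to 2849 CPM in the titled control libraries. Of 9 T cell markers all 9 were lower, at 298 to 694 CPM in the titled CT-26 libraries and 1380 to 2106 CPM in the titled control libraries. Mature neutrophil markers, 4 of 7 tested higher, summed to 2537 to 5756 CPM in the titled CT-26 libraries and 344 to 1442 CPM in the titled control libraries, and all 8 markers of red cell precursors were higher, at 2759 to 5060 CPM in the titled CT-26 libraries and 750 to 870 CPM in the titled control libraries. Of 6 monocyte markers 4 were lower, and of 7 tested red pulp macrophage markers 4 were lower, at 949 to 1202 CPM in the titled CT-26 libraries and 1720 to 1980 CPM in the titled control libraries for the 8 in all. Markers of neutrophil precursors (7 of 7 tested) and of dividing cells (6 of 6) were higher, and 4 of 4 tested NK cell markers were lower. None of 3 tested platelet markers passed. At 0 counts were the platelet marker Gp9 in the titled control set and the epithelial marker Krt19 in both sets. The part of cell composition in the differences of Fos, Junb, Jund and Ier3 was not tested.

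The sequencing lane in the file names gives another way to group the libraries. In lane 1, with 2 titled CT-26 libraries and 1 titled control library, the log2 CPM difference was 1.19 for Fos, 1.65 for Jund, 1.88 for Ier3 and -0.07 for Junb. In lane 2, with 1 titled CT-26 library and 2 titled control libraries, it was 2.49 for Fos, 1.73 for Jund, 1.64 for Ier3 and 1.40 for Junb. The direction of Fos, Jund and Ier3 was thus the same in both lanes, and that of Junb was not. Zfp36 had -0.37 in lane 1 and 0.39 in lane 2, and Egr1 had -0.42 and 0.24. Lanes 3 and 4 held 1 set each.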

How the data were processed

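RNA-seq was read from 8 spleen libraries. The authors deposited raw fragment counts per gene, produced by featureCounts 2.0.1 with an M29 GENCODE annotation (GRCm39) and no strand setting, per the file headers. The submitters' processing notes name the trimmer Trimmomatic 0.39, the aligner STAR 2.7.10a and the builds GRCm38 and GRCm39. Of 55414 genes, 52081 received symbols from a reference table used for names only. Receptor tables were not used.

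Low counts were removed by filterByExpr. After TMM scaling, the titled CT-26 set was compared with the titled control set by the quasi-likelihood test of edgeR, in its robust form, with Benjamini-Hochberg adjustment at 0.05 over all 6408 genes tested. The SE is the log2 fold change over the square root of the F statistic, and approximate 95% intervals take the normal quantile times the SE on each side. Within-library ratios used 0.5 added counts. Named genes are the members and, per list, up to 4 of smallest p, and those most like the members; 2 genes that the rule picks are not reported here. Counts given for other list genes (Srf, Fosl1) were chosen after their values were seen. The members and lists were chosen with earlier results of these data known. Floors of 3 counts cover counting error only. The procedure was run on simulated data with 200 changed genes, as many higher as lower. That is far fewer than the 2740 genes called here, so the simulation does not test TMM scaling under so wide a difference. No label says that equal replicate numbers mark shared animals, and the fit has no pairing. No 2 libraries of a set agreed within counting noise (lowest chi-square per degree of freedom 3.70). Tools were R 4.3.3, edgeR 4.0.16, DESeq2 1.42.0, Python 3.11.15, pandas 2.3.3, numpy 2.4.6, scipy 1.17.1 and matplotlib 3.10.9. Alternatives were DESeq2, no TMM, mitochondrial genes removed, no filter, a replicate block, the sequencing lane and leaving out each library.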

Additional observations from a re-analysis of the deposited data

Results flagged for a closer look

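Of 32 groups of 4 values examined for a lone extreme library, 2 held one, where chance gives about 1 in 20 groups of normally spread values. The groups include genes with few counts, for which that rate may not hold. Ier2 in titled control 3 stood at 11.8 CPM, with the other titled control libraries between 3.20 and 4.35 CPM. These values rest on only 11 counts in titled control 3 and on 3, 6 and 7 in the others. The log2 ratio of Zfp36 to Zfp36l2 in titled control 3 was 2.29, with the other titled control libraries between 1.65 and 1.69. Both values come from the titled control library of fewest counts, 907109. Without that library the ratio still differed by -1.19 between the sets.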

How the results depend on the processing

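Over 14 alternatives, the members called stayed between 3 and 4, all higher, and Fos, Jund and Ier3 kept their direction and call in each. Junb lost its call with the sequencing lane in the model (0.74, adjusted p 0.1004) and without titled CT-26 1, titled control 1 or titled control 2, and leaving out each library gave 0.53 to 0.93 (adjusted p 0.0150 to 0.131). Zfp36, not called in any, turned to 0.16 without TMM and 0.0189 with the lane. Myc, not called, turned to 0.30 without TMM, 0.00690 without the filter and 0.0841 with the lane, and leaving out 1 library gave -0.12 to 0.0307, the highest without titled CT-26 2. The cause of these changes was not tested. Without TMM all fold changes moved up by a median of 0.37, and 1936 genes were higher and 725 lower, where TMM gave 1359 higher and 1381 lower. Called list genes changed by more than 1.5 times in other immediate early genes (11, or 7 without TMM and 7 with the lane), upstream kinases (6, or 3 with the lane), Zfp36 targets (2, or 6 without the filter) and heat shock genes (2, or 1 without titled CT-26 1 or 3). Replicate numbers did not pair the libraries (correlations of deviations from -0.0914 to 0.0764, the highest with the own number for 1 of 4), and a replicate block gave 2668 calls against 2740, with 4 members called. The block ended the Hsph1 call (-3.43, adjusted p 0.0600), and with it Hspa8 passed (-0.69, adjusted p 0.0341). Leaving out a library leaves 35 assignments, whose smallest exact permutation p of 0.0571 cannot pass. Totals of 3 to 27 counts per gene and set limit what can be said of Fosb, Jun, Ier2 and Atf3.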
